A study of Mus musculus with 6 samples.

Results

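The 9 genes described here encode transcription factors known for the self-renewal of HSCs, the hematopoietic stem cells of bone marrow that give rise to all blood lineages: Mecom, Hlf, Meis1, Gata2, Runx1, Erg, Fli1, Lmo2 and Tal1. They were taken by gene name from a deposited table of 27198 genes, which lists each of them once, and all 9 were among the 16520 genes that passed the filter on low counts. RNA of sorted HSCs was sequenced after cDNA amplification in 3 control (Ctrl) and 3 long-term ferulic acid (l-FA) libraries. All mice were wild-type, unirradiated C57BL/6 males aged 8 to 10 weeks. Ctrl mice received solvent, and l-FA mice received ferulic acid (FA), a plant phenolic acid with antioxidant activity, by intraperitoneal injection at 50 mg/kg daily for 30 days. The sort kept Lineage-, Sca-1+, c-Kit+, CD34- and Flk2- (CD135-) cells in both groups. The comparison asks how the RNA of these factors differed in HSCs after long-term FA.

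Most of these factors work together on shared stretches of DNA. Tal1, a basic helix-loop-helix protein, pairs with E proteins and is joined through Lmo2 and Ldb1 to a GATA factor, while Runx1 with its partner Cbfb and the ETS proteins Erg and Fli1 often occupy the same enhancers. Meis1 binds beside HoxA proteins, Mecom (the MDS1 and EVI1 locus) is a zinc finger regulator of the PRDM family, and Hlf is a PAR bZIP factor that marks immature blood cells. In mice, loss of Runx1, Tal1, Lmo2 or Gata2 blocks the formation of blood stem cells, and Mecom, Meis1 and Erg are needed to maintain them.

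Each library held 19287735 to 20380610 counts. Neither the labels nor the methods say how many mice gave each library, so p-values measure only the spread between these libraries, which may be technical. The median chi-square of a gene's counts was 0.897 to 1.09 between libraries of the same group and 8.05 to 8.68 between libraries of different groups. The RNA went partly against the sort. Per gene length, Cd34 (132 to 134 FPKM in Ctrl and 161 to 168 in l-FA) and Flt3 (119 to 119.6 and 194 to 198), whose proteins the sort excluded, lay above Kit (78.9 to 80.8 and 91.2 to 92.1), whose protein it required. FPKM is the authors' level per gene length and library depth. Ly6a, which encodes Sca-1, also required by the sort, had only 9.16 to 15.0 FPKM in Ctrl and 22.4 to 23.3 in l-FA. Slamf1, which encodes the HSC surface protein CD150, had 32 to 51 counts in a Ctrl library and 152 to 179 in an l-FA library. The libraries are called HSCs here because their labels do. In bulk RNA, fewer cells of a type and less RNA per cell cannot be told apart.

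Promoter windows of 300 bases, from 250 bases before to 50 after a start site, are given by RefSeq on GRCm38.p6 for 7 of the 9 genes, 13 windows in all. Those of Fli1 and Lmo2 were not used here. Because Mecom, Runx1, Erg and Tal1 rose and Hlf fell, 1 window of each is shown, for a gene with several start sites the window with the most matches among the motifs searched. Capitals mark the motifs searched on both strands, which do not overlap each other in these windows. The GATA motif was searched as AGATAA or as TGATAA, and also as AGATAG or as TGATAG. The ETS motif was searched as CGGAAG or as AGGAAG, and the RUNX motif as TGTGGT or as TGCGGT. The E-box was searched as CAGCTG or as CAGATG, the MEIS motif as TGACAG, and the PAR bZIP motif as TTACGTAA or as TTATGTAA.
Erg, the most downstream of its start sites (chr16:95459299-95459598, minus strand): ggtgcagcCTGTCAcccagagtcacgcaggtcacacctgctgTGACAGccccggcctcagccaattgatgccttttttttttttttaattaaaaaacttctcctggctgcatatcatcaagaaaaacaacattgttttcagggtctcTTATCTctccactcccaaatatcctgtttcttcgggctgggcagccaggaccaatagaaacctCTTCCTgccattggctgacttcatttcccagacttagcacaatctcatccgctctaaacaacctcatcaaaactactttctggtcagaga
Mecom, the downstream start site (chr3:30013155-30013454, minus strand): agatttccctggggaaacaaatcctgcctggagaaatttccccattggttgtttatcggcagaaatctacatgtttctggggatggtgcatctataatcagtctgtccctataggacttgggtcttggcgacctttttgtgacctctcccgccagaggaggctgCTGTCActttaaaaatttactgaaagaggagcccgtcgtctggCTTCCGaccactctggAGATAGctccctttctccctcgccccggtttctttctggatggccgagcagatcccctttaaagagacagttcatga
Tal1, the upstream start site (chr4:115056176-115056475, plus strand): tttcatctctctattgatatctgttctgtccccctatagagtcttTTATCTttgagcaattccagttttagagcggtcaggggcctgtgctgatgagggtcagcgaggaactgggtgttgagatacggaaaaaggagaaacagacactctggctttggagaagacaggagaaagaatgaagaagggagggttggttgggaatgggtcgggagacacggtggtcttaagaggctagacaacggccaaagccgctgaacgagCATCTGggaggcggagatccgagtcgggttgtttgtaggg
Runx1, the upstream start site (chr16:92826025-92826324, minus strand): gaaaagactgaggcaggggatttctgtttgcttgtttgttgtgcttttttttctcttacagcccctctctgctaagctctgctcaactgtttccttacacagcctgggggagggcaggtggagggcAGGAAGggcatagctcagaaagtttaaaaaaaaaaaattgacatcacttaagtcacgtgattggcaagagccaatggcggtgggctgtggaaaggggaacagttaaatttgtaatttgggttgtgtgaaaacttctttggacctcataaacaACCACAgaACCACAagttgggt
Hlf, its only listed start site (chr11:90390868-90391167, minus strand): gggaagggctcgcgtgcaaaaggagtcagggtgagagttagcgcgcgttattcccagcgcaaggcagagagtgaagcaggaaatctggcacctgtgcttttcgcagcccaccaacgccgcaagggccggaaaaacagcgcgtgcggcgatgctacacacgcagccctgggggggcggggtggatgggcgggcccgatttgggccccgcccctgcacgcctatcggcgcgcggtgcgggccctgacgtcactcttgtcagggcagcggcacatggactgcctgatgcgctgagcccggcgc
The Erg window holds a GATA, an ETS and 2 MEIS matches, the Mecom window a GATA, an ETS and a MEIS match, the Tal1 window a GATA and an E-box match, and the Runx1 window an ETS and 2 RUNX matches. No motif searched is found in the Hlf window. Of the 13 windows, 4 held GATA letters (29.8% of all 32851 promoter windows did), 4 ETS (46.5%), 3 E-box (30.6%), 2 RUNX (22.4%), 2 MEIS (19.2%) and none PAR bZIP (1.06%). The counts are per gene and do not say which start site was used.

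Of the 9 factors, 4 were higher and 2 were lower in HSCs of l-FA mice at an adjusted p under 0.05 from edgeR's quasi-likelihood test, where 25.5% of all genes tested were higher and 25.0% lower. The other 3 did not pass. Erg, Mecom, Tal1 and Runx1 rose, and Hlf and Fli1 fell. The 6 called are a share of 66.7%, against 50.5% of all genes tested, which is not far above the background. No member passed the 2-fold limit of the study's methods, which 11.8% of all genes tested passed together with the adjusted p, in edgeR or in DESeq2; 6 members had an unadjusted p under 0.05 in edgeR. The median log2 fold change of the 9 was 0.17, against 0.00 over all genes tested (0.0035). The groups did not overlap for the same 6 genes, where 60.3% of all genes tested did not overlap. The share of all counts that fell on the 9 genes together was 0.148% to 0.154% in Ctrl and 0.154% to 0.166% in l-FA. It is taken from raw counts and includes the 3 factors that did not pass. Scaling libraries by total counts moved the median log2 fold change of all genes up by 0.079, so the share does not show a rise of the factors as a group.

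**Figure D1:**
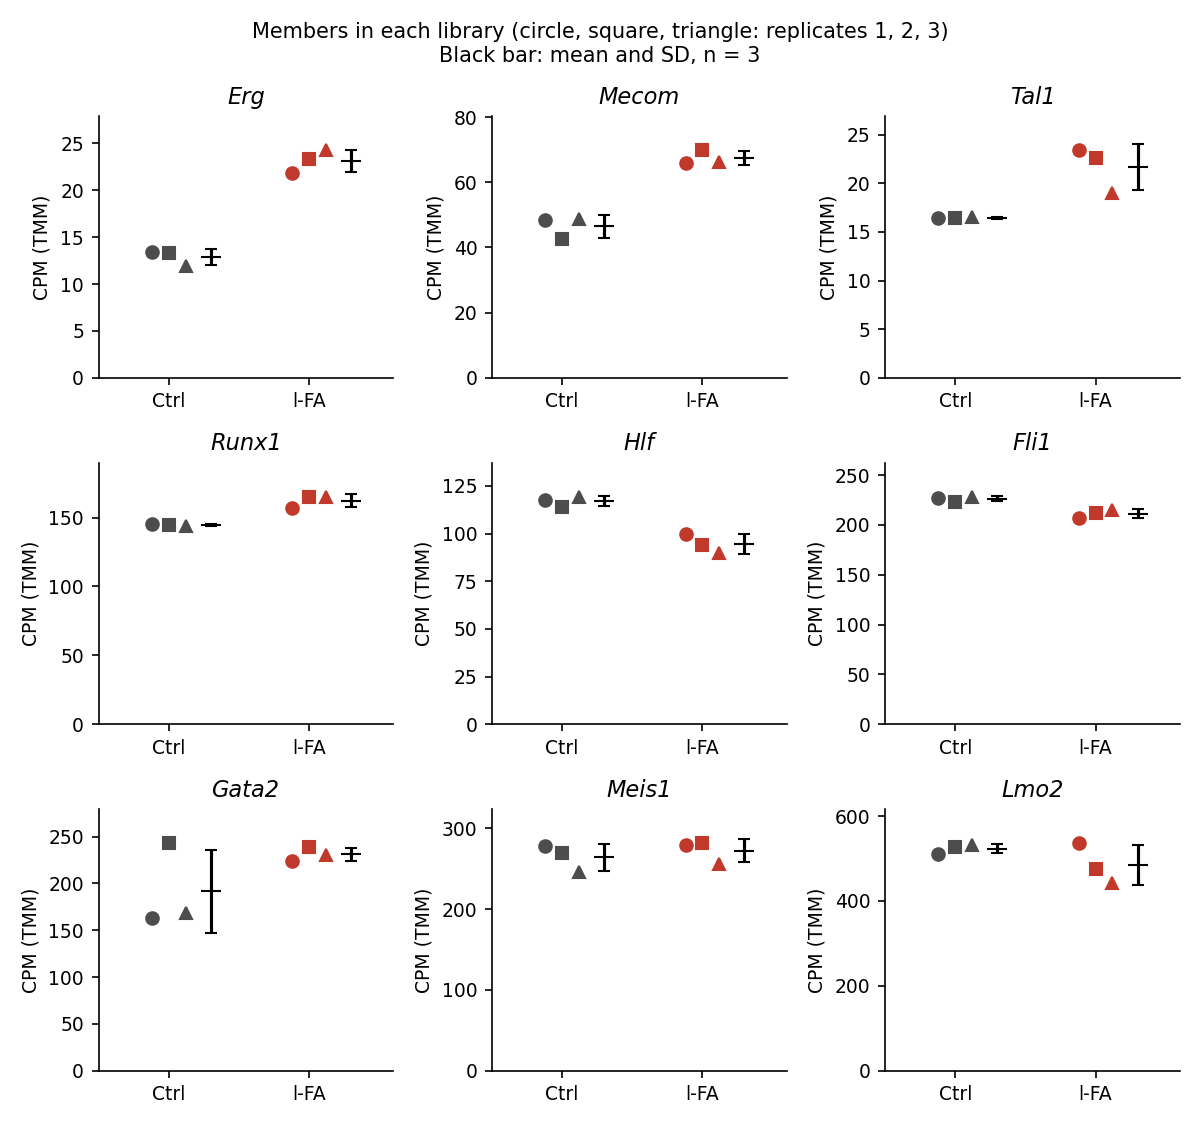
TMM-scaled CPM of each factor on a linear axis from 0, by group, with the 3 libraries as points and the mean and SD (n = 3) beside them. Erg, Mecom, Tal1 and Runx1 lie wholly higher in l-FA and Hlf and Fli1 wholly lower, while the highest Ctrl value of Gata2 is replicate 2 at 243 CPM.

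Erg and Fli1 encode closely related ETS factors that bind the same core letters, and their RNA did not move together. Erg (ENSMUSG00000040732; chromosome 16, 95160028 to 95387452) had 13.4, 13.3 and 11.9 CPM (counts scaled to library size, with edgeR's TMM factors) in the Ctrl libraries and 21.8, 23.3 and 24.2 CPM in the l-FA libraries. Every l-FA library was above every Ctrl library, on 237 to 257 counts in Ctrl and 458 to 484 in l-FA. The rise was 1.8-fold, a log2 fold change of 0.85 (standard error, SE, 0.078 and edgeR adjusted p = 0.000259), the largest among the 9, and 15.6% of all genes tested changed by more in either direction. Gm56622, a noncoding RNA gene inside Erg, had 107 to 132 counts in Ctrl and 135 to 156 in l-FA, and the sources do not state if reads were counted by strand.

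Fli1 (ENSMUSG00000016087; chromosome 9, 32333500 to 32454157) had a far higher level than Erg per gene length and changed little. It had 227, 223 and 228 CPM in Ctrl and 207, 212 and 215 CPM in l-FA, so the groups did not overlap on this scale. It fell by 6.66%, a log2 fold change of -0.10 (SE 0.026 and edgeR adjusted p = 0.0176). This call rests on the scaling: with libraries scaled by their total counts the log2 fold change was -0.021 (edgeR adjusted p = 0.527), and it was also lost without l-FA replicate 1 (-0.069, adjusted p = 0.0824) or without l-FA replicate 2 (-0.09, adjusted p = 0.0679 in the same test).

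Within a library, the ratio of 2 genes does not depend on the scaling. The ratio of Erg to Fli1, in FPKM, was 2.26%, 2.28% and 2.0% in the Ctrl libraries and 4.05%, 4.21% and 4.33% in the l-FA libraries. All l-FA ratios lay above all Ctrl ratios, by 2.02 percentage points on average (Ctrl 2.18% ± 0.157 against l-FA 4.2% ± 0.137, SD, n = 3). The ratios of paralogs were chosen after the values were seen, and with 3 libraries a group an exact two-sided permutation test cannot go below p = 0.1, so no test of them is given.

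Tal1, Lmo2 and Gata2 belong to a complex that Ldb1 holds together. Tal1 (ENSMUSG00000028717; chromosome 4, 114913623 to 114928952) had 16.4, 16.4 and 16.5 CPM in Ctrl and 23.4, 22.6 and 19.0 CPM in l-FA. Its Ctrl libraries were almost equal, and l-FA replicate 3 was the nearest to them. Tal1 rose 1.32-fold, a log2 fold change of 0.40 (SE 0.090 and edgeR adjusted p = 0.0105). Lyl1, its closest relative among the genes listed, went from 7.71 ± 0.820 to 6.25 ± 0.785 CPM (SD, n = 3) and did not pass (log2 fold change -0.30, SE 0.13, edgeR adjusted p = 0.101). The ratio of Tal1 to Lyl1 in FPKM was 84.1%, 99.7% and 102% in Ctrl and 148%, 184% and 133% in l-FA, with every l-FA library above every Ctrl library. Lyl1 had at most 166 counts in a library.

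Lmo2 (ENSMUSG00000032698; chromosome 2, 103788331 to 103812223), the LIM-only bridge of the complex, had the highest level of the 9 factors per gene length. It had 510.4, 527 and 532 CPM in Ctrl and 536, 476 and 443 CPM in l-FA. The l-FA libraries spread widely, with replicate 1 above every Ctrl library and the other two below them. Its log2 fold change was -0.11 (SE 0.067, 95% interval -0.27 to 0.05, edgeR adjusted p = 0.219), and without l-FA replicate 1 it was -0.17 (edgeR adjusted p = 0.0158). Ldb1, the cofactor that Lmo2 binds, fell from 54.4 ± 2.16 to 31.7 ± 2.62 CPM (SD, n = 3), with a log2 change of -0.78 (SE 0.071 and edgeR adjusted p = 0.000245).

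Gata2 (ENSMUSG00000015053; chromosome 6, 88170873 to 88184014), a zinc finger factor of stem and early progenitor cells, had 163, 243 and 168 CPM in Ctrl and 224, 238 and 231 CPM in l-FA. Ctrl replicate 2 lay above all 3 l-FA libraries, while the other Ctrl libraries lay below all of them. The log2 fold change was 0.27 with a SE of 0.15 (95% interval -0.09 to 0.63), and it did not pass (edgeR adjusted p = 0.18). Without Ctrl replicate 2 it was 0.48 (SE 0.037 and edgeR adjusted p = 0.000594), so 1 library decides this call. Among 10049 genes with a mean of at least 10 CPM, 5.55% spread at least as widely as Gata2 among the Ctrl libraries. Gata1, the related factor of erythroid and megakaryocytic cells, rose from 18.6 ± 1.73 to 26.3 ± 1.72 CPM (SD, n = 3), with a log2 change of 0.50 (SE 0.090 and edgeR adjusted p = 0.00401). In FPKM, Gata1 stood at 21.2% to 37.7% of Gata2 in Ctrl and at 32.5% to 38.1% in l-FA, and these ranges overlapped.

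Runx1 (ENSMUSG00000022952; chromosome 16, 92398354 to 92623037), the runt-domain factor needed for the first blood stem cells, had 146, 144 and 144 CPM in Ctrl and 157, 165 and 165 CPM in l-FA. The rise of 12.1% was small but exceeded the spread, since every l-FA library was above every Ctrl library. Its log2 fold change was 0.17 (SE 0.030 and edgeR adjusted p = 0.00388). Cbfb, which encodes the partner that strengthens its binding to DNA, stood at 279.6 ± 2.68 CPM in Ctrl against 263 ± 10.5 CPM in l-FA (SD, n = 3), with a log2 change of -0.09 (SE 0.033 and edgeR adjusted p = 0.0652). Runx2 and Runx3, the relatives of Runx1, had log2 fold changes of -0.03 (95% interval -0.15 to 0.09) and 0.01 (95% interval -0.07 to 0.09); both are named here outside the rule for named genes, after their values were seen.

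Mecom (ENSMUSG00000027684; chromosome 3, 30005445 to 30602157) had 48.4, 42.4 and 48.7 CPM in Ctrl and 65.8, 69.8 and 66.3 CPM in l-FA. Every l-FA library was above every Ctrl library by a wide margin. The rise was 1.45-fold, a log2 fold change of 0.53 (SE 0.064 and edgeR adjusted p = 0.000711). Prdm16, its relative of the same family and also an HSC regulator, rose from 14.5 ± 0.577 to 26.6 ± 1.03 CPM (SD, n = 3), with a log2 change of 0.87 (SE 0.064 and edgeR adjusted p = 0.000106). The ratio of Prdm16 to Mecom in FPKM was 45.1%, 47.6% and 43.8% in Ctrl and 57.5%, 54.4% and 61.0% in l-FA, again without overlap. Ctbp1, which encodes a corepressor that binds Mecom, fell from 80.1 ± 6.70 to 30.8 ± 3.56 CPM (SD, n = 3), with a log2 change of -1.38 (SE 0.099 and edgeR adjusted p = 0.000101). The Mecom locus makes long and short proteins, which counts per gene do not separate.

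**Figure D2:**
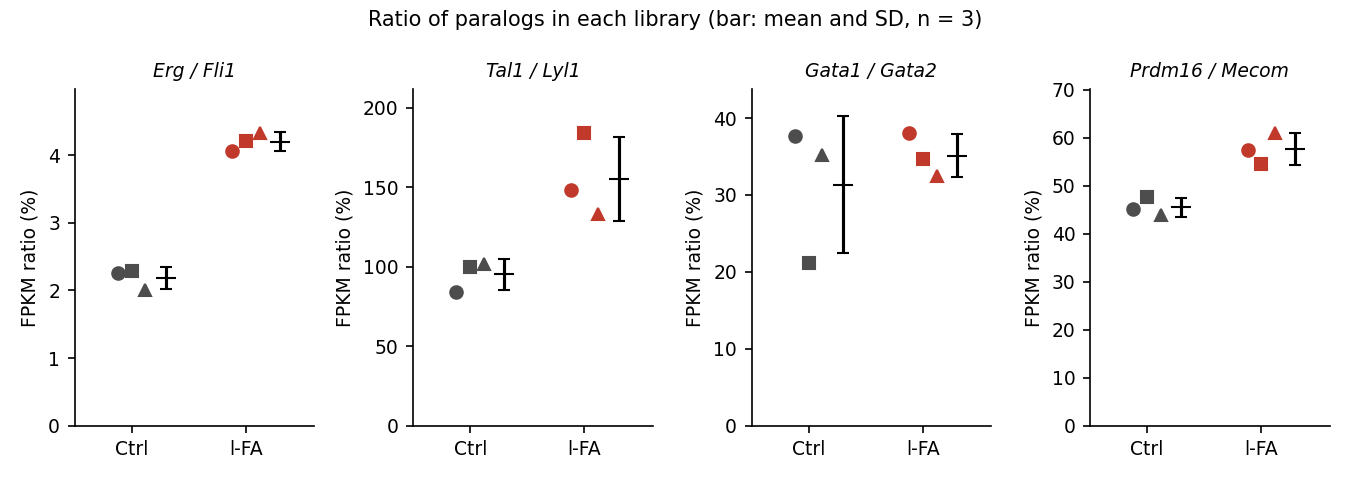
Ratio of the FPKM values of related genes within each library, in percent on axes from 0, by group, with the mean and SD (n = 3). The ratios of Erg to Fli1, Tal1 to Lyl1 and Prdm16 to Mecom lie higher in all l-FA libraries, while that of Gata1 to Gata2 overlaps between the groups.

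Meis1 (ENSMUSG00000020160; chromosome 11, 18829817 to 18968985), a homeobox factor that works with HoxA proteins, had 278, 269 and 246 CPM in Ctrl and 279.6, 281 and 256 CPM in l-FA. The groups overlapped almost wholly. Its log2 fold change was 0.04 (SE 0.057, 95% interval -0.09 to 0.18, edgeR adjusted p = 0.561), and its sign turned without Ctrl replicate 3 (-0.012). Hoxa9, its partner on DNA, rose from 97.7 ± 1.63 to 117 ± 2.11 CPM (SD, n = 3), with a log2 change of 0.26 (SE 0.031 and edgeR adjusted p = 0.00068).

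Hlf (ENSMUSG00000003949; chromosome 11, 90227362 to 90281721) was the factor with the clearest fall. It had 118, 114 and 119 CPM in Ctrl and 100.005, 94.2 and 89.7 CPM in l-FA, and every l-FA library was below every Ctrl library. It fell by 19.1% (log2 fold change -0.31, SE 0.047, edgeR adjusted p = 0.00195), and with libraries scaled by total counts the log2 fold change was -0.23 (adjusted p = 0.0086 in the same test). Of the other PAR bZIP genes listed, Tef had a log2 fold change of 0.52 (SE 0.21, adjusted p = 0.0814) and Dbp of 0.18 (SE 0.11 and edgeR adjusted p = 0.201); both are named after their values were seen.

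**Figure D3:**
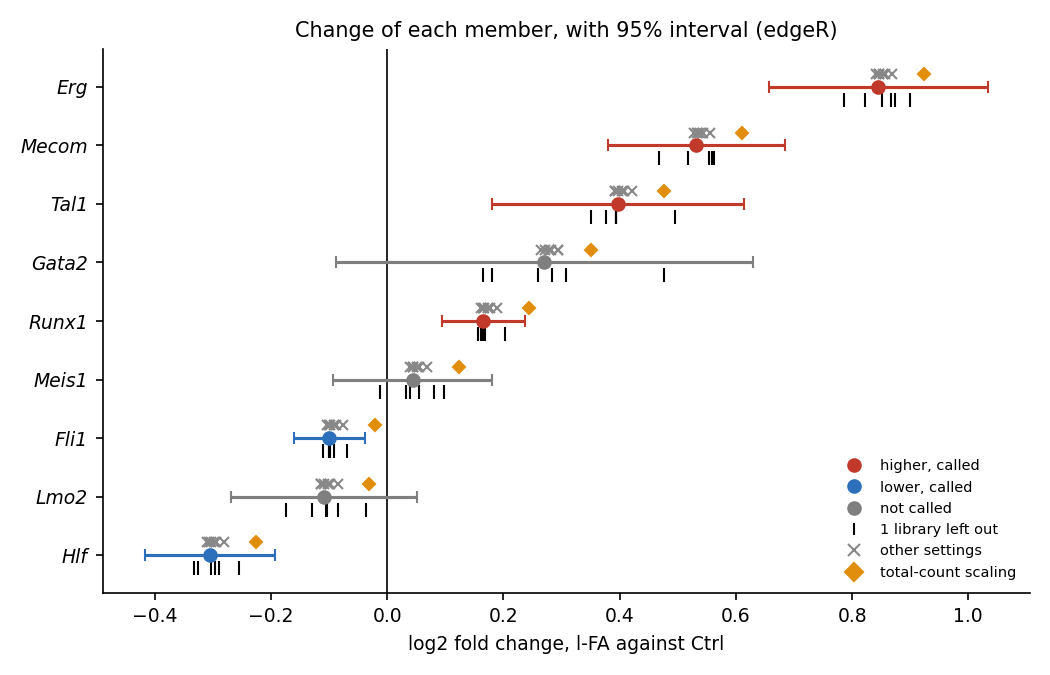
The log2 fold change of l-FA against Ctrl for each factor (horizontal axis), with its 95% interval from edgeR, the 6 fits that leave out 1 library as ticks and the other settings as crosses and diamonds. Erg, Mecom, Tal1 and Runx1 stay above 0 and Hlf below 0 in every fit drawn, Fli1 comes to -0.021 with total-count scaling, and Gata2 reaches 0.48 when Ctrl replicate 2 is left out.

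Per gene length, the order of levels in Ctrl was Lmo2 (75.6 ± 1.81 FPKM, SD, n = 3), Fli1 (63.0 ± 1.01), Gata2 (21.9 ± 5.0), Meis1 (11.4 ± 0.677), Hlf (9.81 ± 0.276), Runx1 (7.63 ± 0.0531), Mecom (2.03 ± 0.163), Tal1 (1.58 ± 0.0142) and Erg (1.37 ± 0.0831). No neighbors in this order overlapped over the 3 Ctrl libraries. In l-FA, Runx1 (9.04 ± 0.218 FPKM) and Hlf (8.38 ± 0.485) had changed places with ranges that overlapped, and Erg (2.61 ± 0.129) stood above Tal1 (2.20 ± 0.244) with no overlap. The other places were those of Ctrl. The gene length behind an FPKM value was 3493 bases for Fli1 and 22454 for Meis1, the shortest and the longest, and the order depends on these lengths. By FPKM, the rises were in genes of low to middling level among the 9, and the 3 most abundant did not rise past the test. With 9 genes this is a description. By mean CPM, without the division by length, the 3 most abundant were Lmo2, Meis1 and Fli1. None of them rose past the test either. Of all genes tested, 1.38% lay above Lmo2 by mean CPM, 3.78% above Meis1, 5.39% above Fli1 and 5.77% above Gata2. The share was 9.39% for Runx1, 15.1% for Hlf, 28.5% for Mecom, 50.9% for Tal1 and 51.9% for Erg.

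By a distance rule, the genes whose pattern over the 6 libraries was most like that of Erg were Traf3ip2, Epx and Pcyt1b. The root mean square distance of their log2 CPM from that of Erg, after centering each gene on its own mean, was 0.033, 0.034 and 0.035. Their log2 fold changes were 0.89, 0.84 and 0.84. Among the factors themselves, Meis1 and Runx1 lay nearest to each other (0.097) and Hlf and Erg farthest apart (0.58).

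Genes around the 9 factors were read from 4 lists written by hand. Of 17 partners and cofactors, all tested, 3 were higher and 7 lower (58.8% called, against 50.5% of all genes tested), with a median log2 fold change of -0.09. Tcf4, an E protein, was higher with a log2 fold change of 0.54, Ssbp2, a stabilizer of Ldb1, with 0.31 and Hoxa9 with 0.26. Ctbp1 and Ldb1 were the largest called falls, followed by Zfpm1, the cofactor of GATA proteins, with -0.64; Zfpm1 had 2.30 ± 0.257 CPM in l-FA (SD, n = 3) and did not pass without Ctrl replicate 3 (log2 fold change -0.49), without l-FA replicate 1 (-0.58) or without l-FA replicate 3 (-0.59). Of 14 paralogs tested, 5 were higher and 1 lower (42.9% called, median 0.18), a smaller share than the 50.5% of all genes tested, of which 25.5% were higher and 25.0% lower. The largest called rises were in Prdm16, Gata1 and the ETS gene Ets2 (log2 fold change 0.47). The lower one was Lmo1, the T cell oncogene related to Lmo2, with -1.37 on 5.13 ± 0.631 CPM in Ctrl (SD, n = 3).

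Of 19 other regulators of HSCs, 4 were higher and 6 lower (52.6% called, median -0.03), a share near that of all genes tested (50.5% called, 25.5% higher and 25.0% lower). The largest called rises were in Egr1, a zinc finger factor of quiescent HSCs and of early responses (log2 fold change 1.12), Nkx2-3, a homeobox gene (0.85), and Mycn, a MYC family gene (0.69). The largest called falls were in Gfi1 (-1.96), a repressor used by HSCs and by granulocyte progenitors, Cebpa (-1.37), which directs granulocyte and monocyte fate, and Hmga2 (-0.83), a chromatin protein of fetal HSCs. Of 16 genes known as textbook targets of these factors, 11 were higher and 1 lower (75.0% called, median 0.36), where 25.5% of all genes tested were higher and 25.0% lower (50.5% called). Gp9 and Gp1ba, subunits of a platelet receptor, had log2 fold changes of 1.41 and 0.67, and the cytokine receptor gene Flt3 of 0.64. The lower one was Spi1 (-0.38), which encodes the myeloid factor PU.1. This list shares 4 genes with the megakaryocyte markers and 2 with the HSC markers below.

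**Figure D4:**
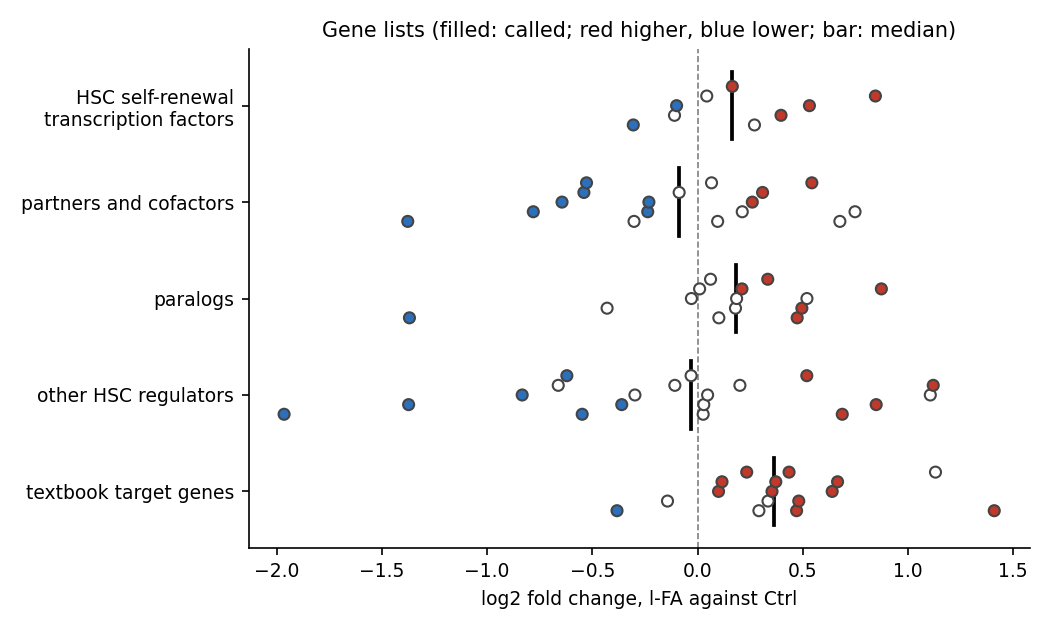
The log2 fold change of each tested gene (points) in the 9 factors and in 4 lists around them, with filled points for genes called by edgeR, a black bar at each list's median and a dashed line at the median of all genes tested. The textbook targets lie mostly to the right with a median of 0.36, while the partners and cofactors spread from -1.38 to 0.75.

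Summed levels of markers of other cells differed between the groups. The counts of called markers given with them stand against 25.5% of all genes tested that were higher and 25.0% that were lower, and those of the endothelial and B cell lists, with few genes tested, lie near these shares. Markers of neutrophils and monocytes summed to 23061 to 23996 CPM in a Ctrl library and 6048 to 6350 in an l-FA library, with 9 of 10 lower and 1 higher. Megakaryocyte markers summed to 213 to 221 CPM in Ctrl and 301 to 309 in l-FA (4 of 6 higher), erythroid markers to 47.2 to 53.9 and 62.2 to 62.9 (3 of 6 higher, 1 lower), and mast cell and basophil markers, cells that also use Gata2, to 74.2 to 77.4 and 98.7 to 106 (3 of 5 tested higher). The erythroid list includes Gata1, whose rise is given above, and is not separate from it. Endothelial cells also use Erg, Fli1, Tal1 and Lmo2; their 7 markers summed to 22.0 to 22.1 CPM in Ctrl and 26.5 to 27.6 in l-FA (2 of 5 tested higher), and the endothelial cadherin gene Cdh5 had 3 counts in each Ctrl library and 5 to 9 in an l-FA library. B cell markers summed to 54.9 to 55.6 and 63.2 to 66.0 CPM (1 of 3 tested higher), with Pax5 at no more than 1 count. T and NK cell markers summed to 543 to 564 and 302 to 312 CPM. Of these 5 markers only Nkg7 passed the filter on low counts, and it was lower, so the sum is mainly the level of Nkg7. HSC markers summed to 1402 to 1453 CPM in Ctrl and 1631 to 1659 in l-FA (6 of 8 higher). Kit made up most of this sum, with a mean of 1112 CPM over the 6 libraries, where Slamf1 had 5.06. The part of the marked cell types in the changes of the 9 factors was not tested.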

How the data were processed

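HSC libraries were made by the authors from amplified cDNA (SMART-Seq HT and KAPA Hyper Prep kits) and then sequenced. The authors deposited counts per gene, whole numbers without normalization, and FPKM values, in which each count is scaled to the length of its gene and the depth of its library. The submitters' processing notes name GRCm39, HISAT2, SAMtools 1.3.1, StringTie and edgeR; the counting tool and annotation are not given in the sources used here. Gene coordinates are those of the deposited table, for which the notes name GRCm39. Promoter windows are on GRCm38.p6, so their positions cannot be set against the gene coordinates.

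The quasi-likelihood test of edgeR 4.0.16 was run in R 4.3.3 on these counts (TMM scaling, filterByExpr, glmQLFit, glmQLFTest), with Benjamini-Hochberg adjustment over 16520 genes; the code was tested on simulated data. A gene was called at an adjusted p under 0.05. The SE is the log2 fold change divided by the square root of F. Counts of amplified cDNA are not independent molecules. Alternatives were DESeq2 1.42.0 (the tool of the study's methods), RLE, upper-quartile and, added after the data were seen, total-count scaling, other low-count filters, the replicate number as a block, and each library left out.

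The 9 members and all lists were chosen with earlier results of these data known. Named genes are the members, Ldb1, Cbfb, Lyl1, Prdm16 and Gata1, up to 3 largest called rises and falls in each list of partners, paralogs, other regulators and targets, and the 3 genes nearest to the most changed member; 1 further gene, which the rule names whatever its change, is not reported here, and no largest called change is left out. Marker lists (HSC, neutrophil and monocyte, erythroid, megakaryocyte, mast cell and basophil, B cell, T and NK cell, endothelial) are given as sums.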

Additional observations from a re-analysis of the deposited data

How the results depend on the processing

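Of the 9 factors, 5 to 7 were called with 1 library left out, 5 with total-count scaling and 6 with DESeq2, and none passed the 2-fold limit under any alternative run. With each of the 6 libraries left out in turn, the log2 fold change ranged from 0.79 to 0.90 for Erg, 0.47 to 0.56 for Mecom, 0.35 to 0.50 for Tal1, 0.16 to 0.20 for Runx1, -0.33 to -0.26 for Hlf, -0.11 to -0.069 for Fli1, 0.16 to 0.48 for Gata2, -0.012 to 0.10 for Meis1 and -0.17 to -0.036 for Lmo2. Erg, Mecom, Tal1, Runx1 and Hlf kept their direction and call under all 13 alternatives run. Fli1 lost its call with total-count scaling (-0.021), which moved the median log2 fold change of all genes by 0.079 and the share of higher genes among those called from 50.4% to 61.6%. The cause of the other moves was not tested. Replicate numbers are shared by the groups, but same-numbered libraries did not deviate together over genes (correlation -0.050 to 0.019 over the 3 pairs); with the replicate block 6 factors were called, and Erg had a log2 fold change of 0.85 (edgeR adjusted p = 0.00427). The number of genes called in each of the 4 lists stayed within 1.5 times under every alternative run. Zfpm1, with 43 to 86 counts in a library, was measured with little precision.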
